A study of Caenorhabditis elegans with 60 samples.

Results

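The comparison described here asked which genes gained and which lost small RNA enrichment when CSR-1A carried alanine in place of the arginine of its 15 arginine/glycine (RG) motifs. Enrichment is the log2 fold change of the small RNAs that map to a gene in an immunoprecipitate (IP) against those in the lysate it came from (the input), and the value followed throughout is the enrichment in CSR-1A[15xAG] minus the enrichment in CSR-1A. It was formed from 11 of the 60 libraries of the series, all of small RNA from *C. elegans* at the L4 stage, the last larval stage, when hermaphrodites make sperm. Synchronized larvae of every group were kept at 20 °C and taken 48 h after hatching. CSR-1A animals, csr-1a(cmp165[2xHA::csr-1a]) IV, gave 3 IP libraries and 2 input libraries, labelled replicates 2 and 3. CSR-1A[15xAG] animals, which carry cmp208[15xAG] in the same tagged allele, gave 3 of each. Both strains therefore carry the HA tag at the start of the long isoform, both keep an untagged CSR-1B, and both IPs used the same HA affinity matrix on lysate of whole larvae. Each strain stands for 1 allele made by CRISPR, and nothing in the labels says whether replicates were separate cultures, so the p-values measure the spread between these libraries.

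CSR-1 is an Argonaute of the germline that binds 22G-RNAs, antisense small RNAs made by RNA-dependent RNA polymerases on the transcripts of germline-expressed genes. It is made as a long form, CSR-1A, which appears during spermatogenesis, and a short form, CSR-1B, made throughout the germline, and the long form differs by an arginine-rich first exon. RG motifs are the usual sites at which protein arginine methyltransferases add methyl groups, and an alanine cannot carry that modification.

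The first coding exon of csr-1a lies at chrIV:7957580-7958054 on the plus strand of WBcel235 and holds 158 codons. Of its 24 arginine codons, 15 are followed by a glycine codon, and these lie between codons 8 and 131. The repair templates that built the mutant in 3 rounds are shown beside the reference because they define the protein whose small RNAs were measured. Capitals mark the arginine codons that precede a glycine codon in the reference and the codons that replace them in the template. Across the 3 templates all 15 such codons became alanine codons, 7, 5 and 3 at a time, and the other changes, 5 in the second and 6 in the third, were silent.
7xAG template, chrIV:7957583-7957705: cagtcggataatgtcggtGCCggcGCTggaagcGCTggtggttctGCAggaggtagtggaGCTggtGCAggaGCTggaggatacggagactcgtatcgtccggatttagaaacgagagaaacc
reference: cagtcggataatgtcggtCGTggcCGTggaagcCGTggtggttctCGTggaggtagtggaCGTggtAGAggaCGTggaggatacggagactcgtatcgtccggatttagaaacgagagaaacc
11xAG template, chrIV:7957736-7957903: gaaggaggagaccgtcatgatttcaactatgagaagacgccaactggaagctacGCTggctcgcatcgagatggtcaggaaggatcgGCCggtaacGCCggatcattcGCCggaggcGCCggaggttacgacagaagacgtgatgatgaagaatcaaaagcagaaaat
reference: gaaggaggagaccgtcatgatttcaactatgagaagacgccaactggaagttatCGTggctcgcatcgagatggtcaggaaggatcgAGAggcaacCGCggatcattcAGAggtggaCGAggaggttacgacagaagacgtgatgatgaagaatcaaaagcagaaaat
15xAG template, chrIV:7957868-7958023: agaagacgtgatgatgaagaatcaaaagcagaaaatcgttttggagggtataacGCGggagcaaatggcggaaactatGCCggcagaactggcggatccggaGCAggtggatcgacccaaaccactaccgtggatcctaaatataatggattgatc
reference: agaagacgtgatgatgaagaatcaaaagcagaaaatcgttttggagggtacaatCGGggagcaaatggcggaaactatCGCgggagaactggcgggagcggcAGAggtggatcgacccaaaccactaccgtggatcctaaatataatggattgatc

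The 11 libraries held between 5066179 and 7829069 counts on genes, and they were not alike in what those counts were. Ribosomal RNA took 41.2 to 61.6% of the counts in the 15xAG inputs and 7.73 to 18.7% in the CSR-1A inputs, whereas the IPs were alike at 7.14 to 7.54% and 5.81 to 11.8%. Protein-coding genes took 20.7 to 32.5% of the 15xAG input counts against 59.5 to 67.9% of the CSR-1A input counts. The WAGO-1 inputs, whose headers name a folder of the same month as those of the 15xAG libraries, held 6.32 to 6.88% ribosomal RNA. The headers of the CSR-1A libraries name a folder of another month, and what the folders stand for is not said. Folder and strain cannot be told apart. Of the CSR-1A IPs, replicate 2 stood apart: its small RNAs on cuticle, muscle and intestine genes summed to 4767 scaled CPM, against 1252 and 2143 in replicates 1 and 3. Scaled CPM is CPM computed on the library's total multiplied by its TMM factor. These factors were 0.402 to 0.623 in the 15xAG inputs, 1.19 and 1.29 in the CSR-1A inputs, and 1.11 to 1.61 in the IPs. All tested genes therefore summed to 1606000 to 2487000 scaled CPM in the 15xAG inputs, against 775000 and 837400 in the CSR-1A inputs. Levels in the 15xAG inputs thus stand higher in scaled CPM than as shares of counts. Every pair of replicates differed by more than counting noise. Reads were counted without regard to strand or length, so 22G-RNAs, other small RNAs and RNA fragments of a gene are summed.

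Of the 14846 genes tested with edgeR's quasi-likelihood test, 1110 (7.48%) had a higher enrichment in CSR-1A[15xAG] and 1720 (11.6%) a lower one at an adjusted p of at most 0.05. The differences of the called genes lay between 0.73 and 8.26 among the gains and between -7.32 and -0.725 among the losses, and the median over all genes tested was -0.02. The split between gains and losses depended on the scaling. Gains were 39.2% of the calls with TMM, 50.8% when protein-coding genes and pseudogenes were scaled on their own, and 83.9% with library size alone, which moved the median difference, all genes tested, to 0.82. Requiring a 2-fold difference and 10 RPM (reads relative to all mapped reads of the library) in either IP left 858 gains and 807 losses.

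Each IP was first compared with its own input in the same fit. In CSR-1A, 20.4% of the genes tested were enriched and 19.5% depleted, and in CSR-1A[15xAG] 31.9% were enriched and 34.8% depleted.

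A difference of enrichment has an IP part and an input part, and both differed between the strains. The 15xAG IPs differed from the CSR-1A IPs at 4074 genes (27.4%), and the 15xAG inputs differed from the CSR-1A inputs at 5266 genes (35.5%). Among the 1110 gains, the IP level was higher in CSR-1A[15xAG] at 557 genes (3.75% of all genes tested), and at 503 others the input level alone passed the test, lower in the mutant. Among the 1720 losses, the IP level was lower at 418 genes (2.82% of all genes tested), and at 1177 genes, 68.4% of the losses, the input alone passed, higher in the mutant. Most losses of enrichment were thus genes whose input level was higher in CSR-1A[15xAG], and only a minority had an IP level that fell. In bulk lysates a lower input level can mean fewer cells of a type or less small RNA per cell, and these cannot be told apart. The results below are therefore given by which part moved.

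**Figure D1:**
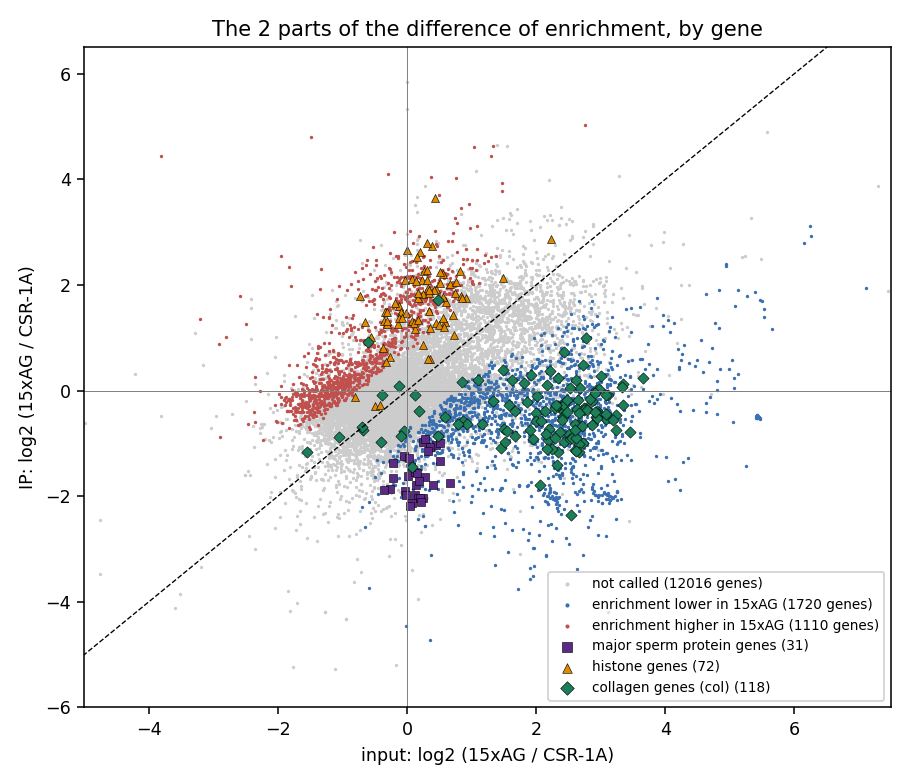
Each point is 1 of the 14846 genes (6 lie outside the axes), with the log2 difference of the inputs, 15xAG over CSR-1A, on the x axis and that of the IPs on the y axis; the dashed line marks an equal difference in both, where the difference of enrichment is 0. Histone genes sit high near an input difference of 0, major sperm protein genes sit low there, and most collagen genes sit to the right with an IP difference near 0.

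The gains that came from the IP were led by histone genes. All 72 histone genes tested had a positive difference, 50 of them passed the test, against 7.48% of all genes, and none was lower. The median histone difference was 1.48, with an enrichment of 1.00 in CSR-1A and 2.65 in CSR-1A[15xAG]. Summed over the 72 genes, small RNAs were at 3335 and 2926 scaled CPM in the CSR-1A inputs and at 2907, 2714 and 2750 in the 15xAG inputs. The CSR-1A IPs held 3353, 5387 and 3722 scaled CPM and the 15xAG IPs held 10960, 11520 and 9326. After TMM scaling the inputs of the strains were thus close to each other, and every 15xAG IP lay above every CSR-1A IP. As a share of all counts on genes, however, histone genes took 0.349 to 0.429% of the CSR-1A inputs and 0.110 to 0.169% of the 15xAG inputs, against 0.540 to 0.736% and 1.07 to 1.28% of the IPs, so that the IPs stood apart in the same direction and the inputs in the other. Gene by gene, the 3 mutant IPs all lay above the 3 CSR-1A IPs at 67 of the 72 histone genes, against 18.8% of all genes.

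The largest histone gain was at his-59 (chrIV:7488216-7488956), one of the core histone genes that animals use to package newly replicated DNA. Its level was 72.8, 132.2 and 76.2 scaled CPM in the CSR-1A IPs and 1242, 1397 and 896.9 in the 15xAG IPs, while the inputs lay between 17 and 31 in both strains. The difference of enrichment was 3.23 ± 0.40 (SE; 11 libraries, adjusted p = 0.000145, edgeR). At his-13, another core histone gene, the IP level went from 53.7, 90.4 and 61.9 to 451.0, 478.6 and 371.9 scaled CPM (difference 2.66 ± 0.32, SE). By contrast his-24, the linker histone H1 gene, had 1276, 2234 and 1501 scaled CPM in the CSR-1A IPs and 1423, 1289 and 1423 in the mutant (difference 0.14 ± 0.34, adjusted p = 0.827, edgeR). The histone genes are near copies of one another: the median gene shares 91.4% of its 22-base words with other places in the genome, and a read that fits several was placed at one of them. Counts of single histone genes are therefore uncertain. The 5 members with less than 10% shared words (his-24, his-37, his-41, his-70 and his-74) include none that passed the test. In the wild-type HA control IP, which has no tagged protein, none of the 71 histone genes tested passed in either direction (adjusted p of at most 0.05, edgeR). Their median enrichment there was -0.154. As a share of counts, however, histone genes took 0.539 to 0.703% of the control IPs and 0.261 to 0.400% of the control inputs. In CSR-1A IPs from alg-3/4 animals, described below, 31 of the 72 were enriched and 2 depleted (median 0.469), with his-59 at 1.31.

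Long intergenic non-coding RNA (lincRNA) genes showed the same kind of gain. Of 70 tested, 22 rose (31.4%, against 7.48% of all genes) and 1 fell, with a median difference of 0.93. In the IP 18 of the 22 were higher. Their summed level was 31570, 35780 and 31340 scaled CPM in the CSR-1A IPs and 77200, 79650 and 79010 in the 15xAG IPs, with inputs from 43170 to 54820 in both strains. The median lincRNA enrichment was -0.75 in CSR-1A and 0.14 in CSR-1A[15xAG], so the median gene was near its input level in the mutant. By the sum, the group was below its inputs in CSR-1A and above them in CSR-1A[15xAG]. A single gene, linc-22 on chromosome X, made up most of this sum, at 19140, 20050 and 18600 scaled CPM in the CSR-1A IPs and 51370, 54450 and 52990 in the mutant IPs (difference 1.59 ± 0.39, adjusted p = 0.0107, edgeR). The gene linc-8 on chromosome II went from 2821, 2468 and 2511 to 7986, 8202 and 8290 scaled CPM in the IPs (difference 1.48 ± 0.32). Both were named after their values were seen.

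**Figure D2:**
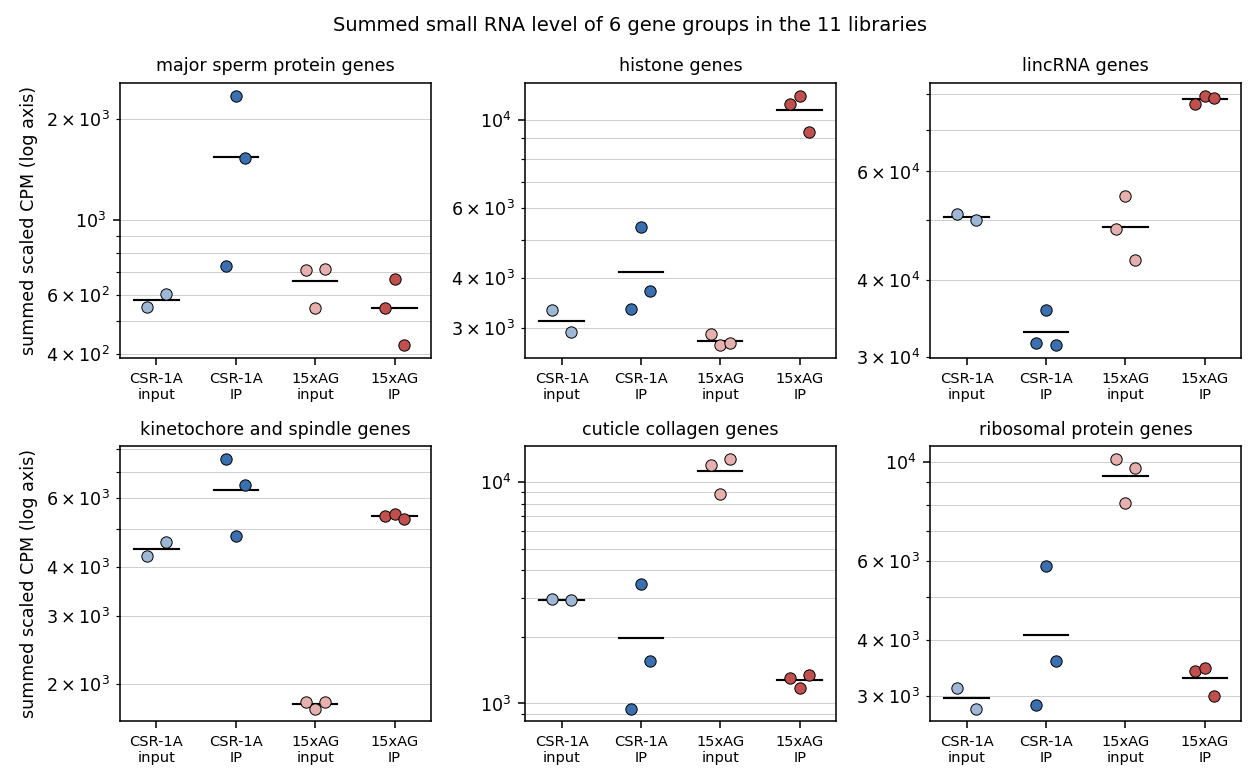
Summed small RNA level (scaled CPM, log axis) of 6 gene groups in each of the 11 libraries, with the mean of each set of libraries as a bar. The mutant IPs stand above the CSR-1A IPs for histone and lincRNA genes and below them for major sperm protein genes, whereas kinetochore, collagen and ribosomal protein genes differ most between the inputs.

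Protein-coding genes with a gain were chosen by a rule: adjusted p of at most 0.05, at least 10 RPM in the higher IP, no overlap between the IPs of the strains, then the 10 largest changes. 339 genes met it. The largest was Y116F11B.9 (chrV:19855174-19867983), known here by its sequence name only. It had 5.98, 7.60 and 6.04 scaled CPM in the CSR-1A IPs, 116.9, 120.5 and 86.6 in the 15xAG IPs, and 6.96 to 10.4 in all 5 inputs, so that only the mutant IPs stood out (difference 3.67 ± 0.33, SE; adjusted p = 2.01e-05, edgeR). A gene of the C-type lectin family, clec-166, was at 38.7, 49.7 and 23.1 scaled CPM in the CSR-1A IPs and at 222.5, 206.3 and 189.4 in the mutant IPs (difference 2.96 ± 0.35). The cytochrome P450 gene cyp-33C8 went from 10.0, 6.45 and 5.49 to 55.2, 59.6 and 51.2 scaled CPM (difference 2.74 ± 0.43). In CSR-1A the first 2 of these genes were near their input level, with enrichments of -0.15 and 0.09. There cyp-33C8 was enriched by 0.83 (adjusted p = 0.048, edgeR). In the mutant all of them were well above their input level, with 3.52, 3.05 and 3.57.

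The other members of the 10 are his-59, described above, 4 genes with sequence names only (Y7A5A.8, Y37H2A.14, Y7A5A.3 and F33H12.7) and the F-box family genes fbxc-4 and fbxa-82. Their differences were 3.58, 3.19, 3.14, 2.83, 3.01 and 2.88 in that order. Y7A5A.8 and Y7A5A.3 lie close together on chromosome X, between 15781625 and 15823055. Y37H2A.14 was already enriched in CSR-1A, by 3.20, and reached 6.40 in CSR-1A[15xAG]. All of the 22-base words of fbxc-4 occur elsewhere in the genome, so its counts are uncertain. Y7A5A.8, Y37H2A.14, fbxc-4 and fbxa-82 rest on few input counts, all below 4 scaled CPM, and the calls of Y7A5A.8 (2.69, adjusted p = 0.119, edgeR) and Y37H2A.14 (3.11, adjusted p = 0.0516, edgeR) ended without CSR-1A input replicate 2. Of these 9 genes besides his-59, 7 were tested in the L4 IP of CSR-1B, and there they lay well below their input, at enrichments between -3.3 and -4.0. In CSR-1A IPs from alg-3/4 animals, described below, Y116F11B.9 (1.48), cyp-33C8 (1.30), Y7A5A.3 (1.55) and Y37H2A.14 (3.47) were enriched. There Y7A5A.8 (0.793), fbxc-4 (0.47), fbxa-82 (1.08), clec-166 (-0.059) and F33H12.7 (-0.457) did not pass. F-box genes of the fbxa family were tested in number: of 108, 24 rose (22.2%, against 7.48% of all genes) and 1 fell. In 22 of the 24 the IP level was higher. The family was picked from a scan of gene families with at least 15 tested genes. A higher mutant IP was not particular to it. It was called at 38 of the 108 fbxa genes, 59 of 135 nhr, 30 of 48 ugt, 19 of 41 cyp and 17 of 24 cest genes. Among col genes it was called at 1 of 118, and among all genes at 15.5%.

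One gene of this kind took a large share of the mutant IPs. Y17D7B.4 (chrV:18776198-18780216, named after its values were seen) was at 1518, 1773 and 1188 scaled CPM in the CSR-1A IPs, below its inputs of 2982 and 2440. In CSR-1A[15xAG] it was at 16650, 17300 and 15470 in the IPs, above its inputs of 4809, 5499 and 4283. It was depleted in one IP and enriched in the other, from -0.86 to 1.76, a difference of 2.62 ± 0.36 (SE; adjusted p = 0.000234, edgeR).

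**Figure D3:**
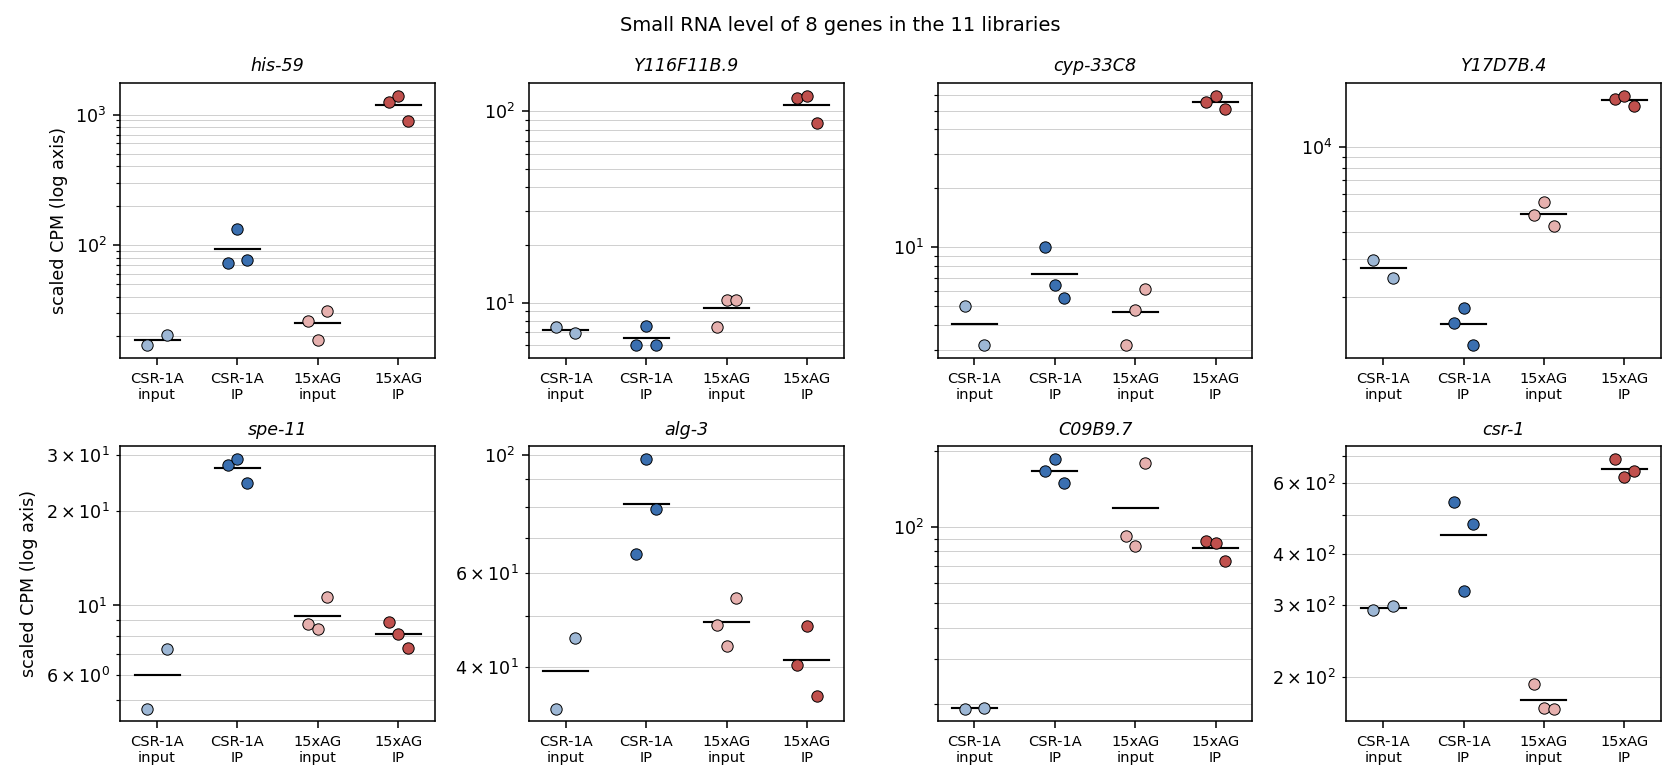
Small RNA level (scaled CPM, log axis) of 8 genes in each of the 11 libraries, with the mean of each set of libraries as a bar. The upper genes rise in the 3 mutant IPs, the first 3 lower genes do not rise above their inputs in the mutant IPs, and csr-1 is lower in the mutant inputs.

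Among the protein-coding lists, the major sperm protein (MSP) genes had the largest share of losses with a lower IP, 24 of 31. MSPs build the cytoskeleton that moves nematode sperm, and they also act as a signal to oocytes. All 31 MSP genes had a negative difference, and the 24 fell (11.6% of all genes did), with a median difference of -1.73. The median enrichment was 1.25 in CSR-1A and -0.39 in CSR-1A[15xAG]. All 31 were lower in the mutant IPs by edgeR's test of IP against IP, while no MSP gene differed between the inputs. Summed over the 31 genes, the CSR-1A inputs held 552.1 and 603.5 scaled CPM and the 15xAG inputs 711.4, 546.6 and 714.6. The CSR-1A IPs held 728.6, 2351 and 1532, and the 15xAG IPs held 547.7, 669.1 and 423.4, a range that overlaps their inputs. By this sum the mutant IPs lay below every CSR-1A IP. Gene by gene, the 3 mutant IPs all lay below the 3 CSR-1A IPs at 22 of the 31, against 17.9% of all genes. The CSR-1A IPs were spread over a wide range, with replicate 2 highest. As a share of all counts on genes, MSP genes took 0.0287 to 0.0383% of the 15xAG inputs and 0.0487 to 0.0746% of the 15xAG IPs, against 0.0710 to 0.0719% and 0.117 to 0.321% in CSR-1A, so the mutant IPs lay above their inputs on that scale. Without that replicate 19 MSP genes passed the test and the median was -1.29. The count fell to 9 without CSR-1A input replicate 2, to 11 without input replicate 3, to 10 and 12 without 15xAG input replicates 1 and 3, to 13 without 15xAG IP replicate 3, and to 9 with library size alone.

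Among single MSP genes, msp-19 was at 40.4, 149.0 and 102.2 scaled CPM in the CSR-1A IPs and at 25.2, 28.6 and 20.3 in the mutant IPs, with inputs from 18.6 to 27.5 (difference -1.95 ± 0.53, SE; adjusted p = 0.018, edgeR). Its call ended without CSR-1A input replicate 2 (-1.77, adjusted p = 0.0949, edgeR) and without 15xAG input replicates 1 and 3 (-1.71 and -1.69, adjusted p = 0.0554 and 0.0527, edgeR). The largest losses were at msp-152 (-2.42 ± 0.60) and msp-64 (-2.33 ± 0.47), that of msp-152 without its call when CSR-1A input replicate 2 was left out (-2.43, adjusted p = 0.0505, edgeR). For msp-79, which has one of the highest levels of the family, the difference of -1.22 ± 0.53 did not pass (adjusted p = 0.125, edgeR). MSP genes share a median of 85.5% of their 22-base words with other places, so their counts also belong to the family more than to any one gene. In CSR-1A IPs from alg-3/4 animals, which carry the alleles alg-4(ok1041) and alg-3(tm1155) with the tagged allele cmp237 of csr-1a, and so are without the Argonautes of the 26G-RNAs made during spermatogenesis, the median MSP enrichment was 1.73, and it was -0.48 in the HA control.

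In the other sperm lists fewer genes passed, though many were lower in the IPs. Whether they differ from the MSP genes was not tested. Of 30 spe and fer genes, needed to make or activate sperm, 2 fell (6.67%) and 1 rose (3.33%), against 11.6% and 7.48% of all genes. Their median difference was -0.20, with median enrichments of 1.13 in CSR-1A and 0.78 in the mutant. In the IPs 10 of the 30 were lower in the mutant and 1 higher, against 11.9% lower among all genes. The clearest loss was at spe-11, which supplies a sperm factor needed by the embryo. It was at 27.9, 29.3 and 24.6 scaled CPM in the CSR-1A IPs and at 8.89, 8.12 and 7.35 in the mutant IPs, close to its mutant inputs of 8.75, 8.44 and 10.7 (difference -2.37 ± 0.33, SE; adjusted p = 0.000238, edgeR). The myosin gene spe-15 also fell (-1.31 ± 0.29), but not without CSR-1A input replicate 2 (-1.14, adjusted p = 0.0545, edgeR). In contrast fer-1, a ferlin needed for sperm vesicle fusion, kept 148.0, 167.2 and 119.6 scaled CPM in the mutant IPs against 183.5, 238.1 and 168.8 in CSR-1A (difference -0.30 ± 0.28, adjusted p = 0.516, edgeR). The calcium channel gene spe-41 had a difference of 0.53 ± 0.29 (adjusted p = 0.232, edgeR).

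Of 27 genes in small sperm-specific families 4 fell (14.8%, near the 11.6% of all genes), with a median of -0.62. In the mutant IPs 14 were lower, against 11.9% of all genes. None of 8 sperm chromatin, PDZ and phosphatase genes passed, with a median of -0.25, and 6 of them were lower in the mutant IPs. Over all 103 genes of the sperm lists, 31 fell (30.1%), of which 24 were MSP genes, and 1 rose. The median of -0.65 became 0.17 with library size alone. In the IPs alone 64 were lower in the mutant and 2 higher, against 11.9% and 15.5% of all genes. The spermatogenesis Argonaute genes alg-3 and alg-4 were themselves among the losses. The IP level of alg-3 was 65.2, 98.3 and 79.2 scaled CPM in CSR-1A and 40.4, 47.9 and 35.4 in the mutant (difference -1.27 ± 0.31, adjusted p = 0.01, edgeR). That of alg-4 was 176.8, 240.3 and 181.1 against 130.0, 143.0 and 113.6 (difference -1.04 ± 0.29, adjusted p = 0.019, edgeR). In scaled CPM the mutant IPs were below every CSR-1A IP at both genes, as at 17.9% of all genes. Both calls ended without CSR-1A input replicate 2 (alg-3 -1.07, adjusted p = 0.0801; alg-4 -0.865, adjusted p = 0.127; edgeR), and that of alg-4 also without 15xAG input replicate 2 or 3 (-0.813 and -0.841, adjusted p = 0.0765 and 0.0738, edgeR). Enrichment of alg-4 stayed above 0, at 1.31, while that of alg-3 went from 1.04 to -0.24.

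Genes of the dividing and meiotic germline gained enrichment mainly through their inputs. Of 36 kinetochore and spindle genes 17 rose (47.2%, against 7.48% of all genes) and none fell. The median difference was 0.95, and 14 of the 17 passed in the input alone. In the inputs, 32 of the 36 were lower in CSR-1A[15xAG]. Their summed level was 4259 and 4632 scaled CPM in the CSR-1A inputs and 1733 to 1802 in the 15xAG inputs, while the IPs overlapped, at 4785 to 7542 and 5307 to 5465. As a share of all counts on genes the IPs did not overlap, at 0.654 to 1.21% in CSR-1A and 0.597 to 0.610% in the mutant. The inputs took 0.548 to 0.552% and 0.0723 to 0.108%. The kinesin gene klp-7, whose product depolymerizes microtubules at kinetochores, shows the pattern. It was at 338.9 and 424.7 scaled CPM in the CSR-1A inputs and 119.9, 107.1 and 115.7 in the mutant inputs, and at 654.4, 612.4 and 622.4 against 492.7, 535.0 and 504.1 in the IPs (difference of enrichment 1.44 ± 0.25, SE; adjusted p = 0.00144, edgeR). The level in the IP was thus not higher in the mutant, and the difference of the IPs was -0.30 ± 0.17. The centromeric histone gene hcp-3 was an exception, with a higher IP level too: 167.0, 93.5 and 164.6 against 235.9, 216.8 and 243.6 scaled CPM (difference of enrichment 2.11 ± 0.33).

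The same held for meiotic chromosome genes, of which 12 of 32 rose and none fell (median 0.81), including the chromosome axis genes him-3 (1.72 ± 0.40) and htp-1 (1.09 ± 0.33). It also held for P granule and Z granule genes (7 of 19 rose, median 0.37), among them the helicase gene glh-4 (1.16 ± 0.33), of whose 22-base words 75.1% occur elsewhere. The call of htp-1 ended without CSR-1A input replicate 2 or 3, 15xAG input replicate 1, or 15xAG IP replicate 1 or 3 (0.978 to 1.17, adjusted p = 0.0526 to 0.112, edgeR). That of glh-4 ended without CSR-1A input replicate 2 or 3 or 15xAG IP replicate 1 (1.13, 1.16 and 1.16, adjusted p = 0.0926, 0.0797 and 0.0501, edgeR). Over all germline lists 40 of 102 rose (39.2%, against 7.48% of all genes) and none fell, with a median of 0.84. Of them 3 were higher in the IPs, 10 were lower there, and 79 were lower in the inputs. Of 59 genes of the oocyte lists, for maternal RNA-binding, eggshell and polarity proteins, 10 rose (16.9%) and 3 fell (5.08%). Of all genes 7.48% rose and 11.6% fell. The median enrichment of the oocyte lists was 0.23 in CSR-1A and 0.67 in the mutant. In the IPs alone 3 of the 59 were higher and 14 lower in CSR-1A[15xAG], against 15.5% and 11.9% of all genes. No rise of oocyte genes as a group was thus seen in the IPs themselves. Genes of the small RNA pathways behaved alike: 12 of 57 rose (21.1%), all 12 by the input alone, and 3 fell (5.26%). Examples are wago-4, a germline Argonaute (1.28 ± 0.29), and ego-1, an RNA-dependent RNA polymerase that makes 22G-RNAs (1.18 ± 0.40, adjusted p = 0.0482, edgeR). The call of ego-1 ended in 8 of the 11 fits that left out 1 library (1.13 to 1.33, adjusted p = 0.0584 to 0.157, edgeR), all but those without CSR-1A IP replicate 1 or 2 or 15xAG input replicate 2. None of 6 arginine methyltransferase and Tudor genes passed, with a median of 0.01.

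Small RNAs of csr-1 itself also belong here. They were at 292.3 and 299.3 scaled CPM in the CSR-1A inputs and 192.3, 167.0 and 166.7 in the 15xAG inputs. The IPs held 539.9, 325.9 and 474.5 in CSR-1A and 687.8, 621.6 and 640.7 in the mutant. These did not overlap on this scale, as at 18.8% of all genes in that direction, but they overlapped in RPM. The difference of enrichment was 1.30 ± 0.29 (SE; adjusted p = 0.00678, edgeR), and IP against IP it was 0.54 (adjusted p = 0.053, edgeR). Reads over the changed codons no longer match the reference in the mutant, and what this does to the counts was not tested. The chromatin gene morc-1, a gene chosen for RT-qPCR by the study, had a difference of 1.11 ± 0.31 (adjusted p = 0.0198, edgeR), with an input of 405.6 and 428.2 scaled CPM in CSR-1A and 205.8, 221.5 and 183.8 in the mutant. Its IPs overlapped, at 562.9, 309.6 and 440.6 against 455.4, 456.6 and 478.0. The call of morc-1 ended without CSR-1A input replicate 2 or 3 (1.14 and 1.07, adjusted p = 0.0707 and 0.0861, edgeR).

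The other RT-qPCR genes are R05D7.2, Y41C4A.7 and F44D12.6, and all were strongly enriched in both IPs. R05D7.2 had 127.3, 126.5 and 111.7 scaled CPM in the CSR-1A IPs and 110.8, 124.7 and 84.5 in the mutant IPs, with enrichments of 3.24 and 3.97. For Y41C4A.7 the IPs held 66.8, 76.0 and 59.5 and then 40.1, 52.1 and 39.9 scaled CPM, and for F44D12.6 they held 73.9, 78.0 and 89.4 and then 43.9, 45.8 and 45.7. Both of these were lower in the mutant IPs, with log2 differences of -0.62 and -0.84, and lower in the mutant inputs, with -0.74 and -0.78. Their differences of enrichment, 0.73 ± 0.33, 0.13 ± 0.29 and -0.05 ± 0.32, did not pass (adjusted p = 0.142, 0.814 and 0.938, edgeR).

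Many losses were at genes that are used outside the germline, and here the inputs moved. Of 160 cuticle, muscle and intestine genes tested, 112 fell and none rose, with a median of -2.91, and in 109 of the 112 the input alone passed. Their summed level was 3972 and 3860 scaled CPM in the CSR-1A inputs and 19260, 15170 and 19890 in the 15xAG inputs. The IPs overlapped, at 1252, 4767 and 2143 and at 2393, 2218 and 2281. Cuticle collagen genes made up most of this: 98 of 133 fell (median -2.95), 96 of them by the input alone, and 40 more of the 173 in the list were too low to test. Of 15 muscle genes 12 fell (median -3.05). As a share of counts, muscle genes took 0.0864 to 0.0984% of the CSR-1A inputs and 0.243 to 0.332% of the 15xAG inputs. The muscle myosin gene unc-54 was at 302.6 and 289.2 scaled CPM in the CSR-1A inputs and 2585, 2287 and 2509 in the mutant inputs, with IPs of 58.3, 374.7 and 141.9 and of 156.5, 143.7 and 154.9 (difference -3.39 ± 0.67, adjusted p = 0.00288, edgeR). At col-71, the collagen gene with the highest IP level, the difference of -1.09 ± 0.35 passed (adjusted p = 0.0418, edgeR), but neither part did alone, and the call ended in 8 of the 11 fits that left out 1 library (-1.24 to -0.866, adjusted p = 0.0681 to 0.173, edgeR), all but those without a CSR-1A IP. Intestine genes differed from these: 2 of 12 fell (16.7%, near the 11.6% of all genes). All 12 were higher in the mutant inputs, and 11 of the 12 in the mutant IPs too, against 20.7% and 15.5% of all genes.

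Ribosomal protein genes fell together, 63 of 76 with 1 that rose, at a median of -1.94. The input alone passed at 50 of them, and at 13 the IP level was also lower. For rpl-5 the inputs were at 62.4 and 57.3 scaled CPM in CSR-1A and 242.4, 200.3 and 255.9 in the mutant, and the IPs at 85.9, 166.2 and 116.1 and at 106.8, 106.6 and 91.7 (difference -2.23 ± 0.33, adjusted p = 0.000475, edgeR). Small structural RNAs fell by both parts. Of 167 small nucleolar RNA genes 81 fell (median -1.79), 58 by the input alone and 12 with a lower IP. Of 479 transfer RNA genes 141 fell (median -0.76), 68 by the input alone and 69 with a lower IP, which makes them the largest group by number among the 418 losses with a lower IP after protein-coding genes. After TMM scaling, these classes, the soma lists and ribosomal RNA all stood higher in the 15xAG inputs. As a share of counts, ribosomal protein genes overlapped in the inputs, at 0.335 to 0.403% in CSR-1A and 0.39 to 0.546% in 15xAG. Their IP shares did not overlap, at 0.462 to 0.799% and 0.345 to 0.3865%. Collagen genes took 0.350 to 0.384% of the CSR-1A inputs and 0.513 to 0.647% of the 15xAG inputs. The part of all of these in the other results was tested only by leaving them out before scaling. This alternative, chosen after seeing the data, gave 1043 gains and 1456 losses.

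By the rule given above for gains, applied to losses, 379 genes passed, and most of the 10 largest were of this kind. They were C27A7.5, Y54G2A.10, C09B9.7, the actin gene act-3, mua-3, which anchors the epidermis to the cuticle, the alpha-actinin gene atn-1, rpl-18, the translation elongation factor gene eef-1A.1, the small GTPase gene rho-1, and rps-0. The differences ran from -5.10 ± 0.45 at C27A7.5 (adjusted p = 2.01e-05, edgeR) to -2.91 ± 0.41 at rps-0. C27A7.5 had 13.2 and 10.9 scaled CPM in the CSR-1A inputs and 201.9, 222.3 and 99.8 in the mutant inputs. Its IPs held 13.4, 18.3 and 14.3 in CSR-1A and 7.27, 4.76 and 7.21 in the mutant, so both parts moved, the input by far the more. Of the 10, C09B9.7 alone was enriched in CSR-1A by more than 1: its inputs were at 19.1 and 19.2 scaled CPM and its IPs at 166.0, 186.1 and 149.1. In CSR-1A[15xAG] its inputs were at 92.0, 83.9 and 179.6 and its IPs at 88.0, 86.8 and 73.2, and the enrichment went from 3.12 to -0.52 (difference -3.64 ± 0.39, adjusted p = 7.99e-05, edgeR). Of act-3, 72.5% of the 22-base words occur elsewhere in the genome, and 17.5% of its exonic length overlaps another gene.

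**Figure D4:**
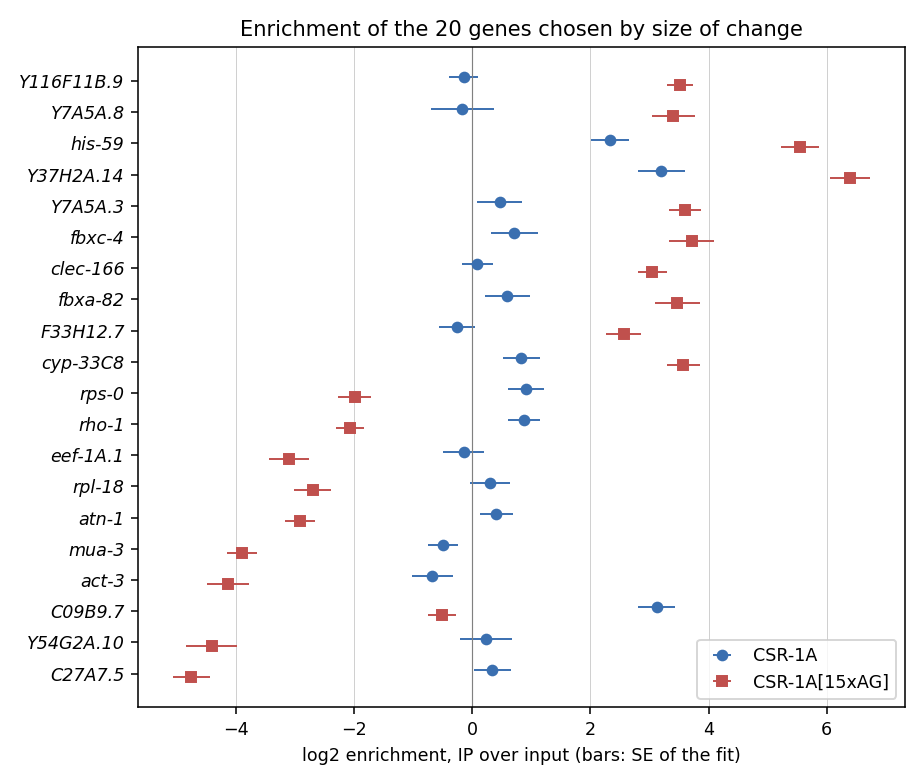
Log2 enrichment of the small RNAs of 20 protein-coding genes, the 10 largest gains and 10 largest losses by the rule, in CSR-1A (circles) and CSR-1A[15xAG] (squares), with the SE of the fit over the 11 libraries as bars. Most of these genes are near 0 in CSR-1A, and C09B9.7 is the loss that starts from a high enrichment, 3.12.

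Genes were then grouped by the IPs in which other libraries of the series found them as targets: 3595 targets of CSR-1B at L4, 2279 of WAGO-1, an Argonaute that silences genes, and 1615 of CSR-1A in alg-3/4 animals. A target was called where the enrichment reached 2-fold with an adjusted p no higher than 0.05 and 10 RPM in the IP, unless the control IP of that antibody called it too. These libraries did not enter the difference of enrichment. The CSR-1B animals carry 2xFLAG::csr-1 (cmp167) and the csr-1a allele cmp135, the WAGO-1 animals carry GFP::3xFLAG::wago-1 and mut-16::mCherry, and the controls were untagged wild-type animals, all at L4. Of the 3592 CSR-1B targets tested, 511 rose (14.2%) and 219 fell (6.1%), against 7.48% and 11.6% of all genes. Their median difference was 0.40, and their median enrichment was 0.43 in CSR-1A and 0.84 in the mutant. In the IPs alone the median difference of the CSR-1B targets was -0.19. There 131 were higher and 372 lower in CSR-1A[15xAG], against 15.5% and 11.9% of all genes. In the inputs 1459 were lower, against 14.8% of all genes. The rise of CSR-1B targets was therefore in the inputs: 430 of the 511 passed there alone. WAGO-1 targets had a median of -0.02, with 87 that rose (3.82%) and 48 that fell (2.11%), both below the shares of all genes. CSR-1A targets in alg-3/4 animals had a median of -0.11 and median enrichments of 1.36 and 1.27. Of them 163 rose (10.1%) and 185 fell (11.5%), the latter close to the 11.6% of all genes. With library size alone the medians of these last sets, WAGO-1 targets and CSR-1A targets in alg-3/4, were positive, at 0.82 and 0.73, as was that of all genes tested.

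Seen from the calls, the gains with a higher IP and the gains by the input alone differed in the target sets that held them. Of the 557 gains with a higher IP, 53 (9.52%) were CSR-1B targets, 49 (8.8%) WAGO-1 targets, 115 (20.6%) CSR-1A targets in alg-3/4 animals and 358 (64.3%) targets of none of these. Of the 503 gains by the input alone, 430 (85.5%) were CSR-1B targets and 33 (6.56%) were targets of none. Over all genes tested, 24.2% were CSR-1B targets and 52.9% were targets of none. Of the 418 losses with a lower IP, 128 (30.6%) were CSR-1A targets in alg-3/4 animals, which are 10.9% of all genes tested, and 70 (16.7%) were CSR-1B targets. The 1177 losses by the input alone held 979 genes (83.2%) that were targets of none. By number of genes, the 557 gains with a higher IP were thus in none of these sets at 64.3%, against 52.9% of all genes tested. They were CSR-1A targets in alg-3/4 animals at 20.6% against 10.9%, WAGO-1 targets at 8.8% against 15.3% and CSR-1B targets at 9.52% against 24.2%.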

How the data were processed

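Small RNA was cloned from IPs and inputs of L4 animals. Per the labels and methods, the authors mapped reads with Bowtie2 2.2.2 to the WS258 genome (WBcel235), placing each read at one position, and counted them per gene with featureCounts (version 1.6.5 per the file headers of the 11 libraries, 1.5.1 in those of CSR-1B). Reads were assigned to the gene of largest overlap, with fractions for ties and no strand option, and the files as deposited therefore hold expected counts, not normalized, for 31106 genes, of which 28127 matched a symbol, 188 of them by their coordinates in RefSeq. Of the 60 libraries, 36 were read and 24 were not used here. The HA control input replicate 2 was incomplete and was left out.

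Expected counts were rounded, scaled by TMM, filtered with filterByExpr and fitted with edgeR 4.0.16 in R 4.3.3 as 4 group means. The interaction of fraction with strain was tested by the quasi-likelihood test with Benjamini-Hochberg adjustment over all genes tested, at a threshold of 0.05. The IP against IP and input against input tests come from the same fit and share its libraries. A gain or loss is assigned to the IP or the input where that part passed in the direction of the change. RPM values, used only in minimums, take the mapped reads that the study lists as denominator. Scripts were tested on simulated data first. Copies were measured as the share of the 22-base words of a gene's exons found elsewhere in the genome, and sequences were read from the study's oligo list and from the WBcel235 reference.

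Genes named are the RT-qPCR genes and csr-1, the 10 gains and 10 losses given by the rule in the text, and from each list those with the highest IP level or the largest called change. The comparison and the lists were chosen with earlier results of these data known, so lists are described by counts and medians without a test. The alternatives were DESeq2 1.42.0 as test and as size factors, library size, upper quartile scaling, no filter, protein-coding genes and pseudogenes only, a replicate block, all HA libraries in one fit, IPs without inputs, removal of HA control genes, a 2-fold and 10 RPM call, and each replicate left out. Counts on genes were between 5066179 and 7829069 per library, and the number of libraries, 2 or 3 a group, limits the precision more than depth does.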

Additional observations from a re-analysis of the deposited data

Results flagged for a closer look

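At 106 genes the small RNAs were enriched in the CSR-1A IP and depleted in the CSR-1A[15xAG] IP, each by edgeR's test against its own input, with a difference of enrichment that also passed. Of these, 71 were protein-coding genes, 20 transfer RNA genes, 11 other non-coding RNA genes, 3 small nucleolar RNA genes and 1 a pseudogene. The opposite, depletion in CSR-1A and enrichment in CSR-1A[15xAG], held at 26 genes, of which 10 were protein-coding genes, 5 pseudogenes and 4 lincRNA genes. Both counts share the doubt about the inputs of the mutant, whose part was not tested.

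Among the 26 are Y17D7B.4, with a difference of 2.62, and the F-box gene fbxa-56, with a difference of 6.30 ± 0.71 (SE; adjusted p = 8.78e-05, edgeR). For fbxa-56 the CSR-1A IPs held 0.309, 0.345 and 0.366 scaled CPM and the mutant IPs 7.85, 11.5 and 10.8, with inputs from 0.265 to 1.03, so the CSR-1A side rests on very few reads. Both genes were singled out after their values were seen.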

How the results depend on the processing

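Among genes with higher enrichment in CSR-1A[15xAG], the 1110 became 4939 with library size alone and 1819 with IPs and no inputs, and between 453 and 1563 with 1 replicate left out (453 and 526 without CSR-1A inputs 2 and 3, which leaves 1 input assumed to vary like the other groups). The 1720 losses became 950 with library size alone, 807 with the 2-fold and 10 RPM call, and 1055 to 2111 with a replicate left out (1055 and 1112 without CSR-1A inputs 2 and 3, 1126 without 15xAG input 1). DESeq2 gave 850 gains and 1821 losses, of which 831 and 1665 were shared. Losses among MSP genes ranged from 9 to 31 with a replicate left out and were 9 with library size alone. Gains of germline list genes, 40, became 86 with library size alone and 1 with no inputs, and 19 to 57 with a replicate left out, 19 without either CSR-1A input. Losses of soma list genes, 112, became 3 with no inputs, 45 with the 2-fold and 10 RPM call, and 77 to 133 with a replicate left out. Gains of CSR-1B targets, 511, became 2212 with library size alone, 51 with no inputs and 166 to 875 with a replicate left out (179 and 166 without CSR-1A inputs 2 and 3, 875 without CSR-1A IP 1, 339 without 15xAG IP 1). Histone gains stayed within 1.5 times of 50, from 37 to 62 with a replicate left out and 71 with library size alone. With IPs alone and CSR-1A IP replicate 2 left out, an alternative chosen after seeing the data, 24 MSP genes were lower and 69 histone genes higher.

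With no inputs, these genes changed sign: Y41C4A.7 (-0.703), morc-1 (-0.0462), klp-7 (-0.405), knl-3 (-0.268), htp-1 (-0.268), glh-4 (-0.0859), wago-4 (-0.382) and ego-1 (-0.246), since that setting drops the input part. Replicate numbers did not pair IP with input (correlations of same-numbered deviations from -0.0622 to 0.0849). With the replicate block there were 1458 gains, 1987 losses and 914 gains of CSR-1B targets.

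Both the scaling and the inputs limit these counts: the 15xAG inputs hold more ribosomal RNA and soma small RNAs than the CSR-1A inputs, and decide most of the losses. By their headers, the 15xAG libraries also come from a folder of another month than the CSR-1A libraries.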
